A study of Homo sapiens with 6 samples.

Results

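A set of 10 genes of blood clotting and its reversal was examined in COV434 cells with and without BRG1 reexpression, of 19899 genes in the deposited table. They were taken by gene symbol as a set of surface and secreted regulators, and all 10 were found. THBD, PROCR and TFPI restrain clotting, F3 starts it, and TFPI2 is a relative of TFPI that inhibits plasmin and other proteases. F2R and F2RL1 are the thrombin and trypsin receptors. PLAU and PLAT encode plasminogen activators, and PLAUR encodes the receptor of urokinase, the product of PLAU. The cells, COV434, are an established line from the ovary, which the study counts among its lines of SCCOHT, the small cell, hypercalcemic cancer of the ovary that lacks the SWI/SNF chromatin remodeling ATPase BRG1 (gene SMARCA4). By the methods of the study, Control cells received an empty plasmid, pCMV-neo or pCDNA3-neo (which of them is not stated for these cells), and BRG1 cells received PBJ5-BRG1, each together with pBABE-puro by FuGENE 6. After 24 hours the cells were put on 2 to 3 µg/ml puromycin for 3 days. There were 3 Control and 3 BRG1 samples. The study also gives a range, not a single value, for the ratio of plasmid to pBABE-puro in these cells. Which sample had which ratio or puromycin dose is not stated. All samples come from 1 cell line, and which promoter drives BRG1 on its plasmid is not given in the sources used here.

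Clotting outside the blood begins when tissue factor, the product of F3, meets factor VII, and ends in thrombin. Thrombin is kept in check by TFPI, which blocks tissue factor, and by thrombomodulin (THBD), which binds thrombin and turns it toward activating protein C on its receptor PROCR. Thrombin and related proteases also signal to cells by cutting protease-activated receptors, and the urokinase and tissue-type activators (PLAU and PLAT) make plasmin, which dissolves fibrin and degrades matrix. Tissue factor and thrombomodulin are made by many epithelia as well as by vessel walls.

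The libraries held 29699741 to 63613710 estimated counts, with BRG1 sample 3 the smallest. Values below are normalized counts, the estimated counts divided by DESeq2 size factors, and a gene was called when its DESeq2 adjusted p was under 0.05. SMARCA4 was between 1439 and 1676 normalized counts in Control and between 78590 and 108700 in BRG1 samples, transcripts of the plasmid included. Over all genes, 11% of the 16002 tested were called higher with BRG1 and 1.84% lower.

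BRG1 reexpression was accompanied by more RNA of the clotting initiator, of both protease-activated receptors, of thrombomodulin, of PROCR and of tissue-type plasminogen activator. Of the 10 genes, 6 (THBD, PROCR, F3, F2R, F2RL1 and PLAT) were called higher, and 1, TFPI, was called lower. PLAU, PLAUR and TFPI2 were not called. All 10 had an adjusted p, and their median log2 fold change was 2.85, beside -0.01 over all genes tested. In the 6 genes called higher every BRG1 sample lay above every Control sample, which 16.7% of all tested genes did, and in TFPI every BRG1 sample lay below, which 9.92% did. The genes were chosen with earlier results of these data known, so these counts describe the 10 genes and test nothing about them as a group. edgeR called the same 6 genes higher (9.57% of all genes) and none lower (0 of 9 tested members, beside 1.02% of all genes). TFPI was the 1 member lower at an unadjusted p under 0.05 in edgeR, at an adjusted p of 0.0833.

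**Figure D1:**
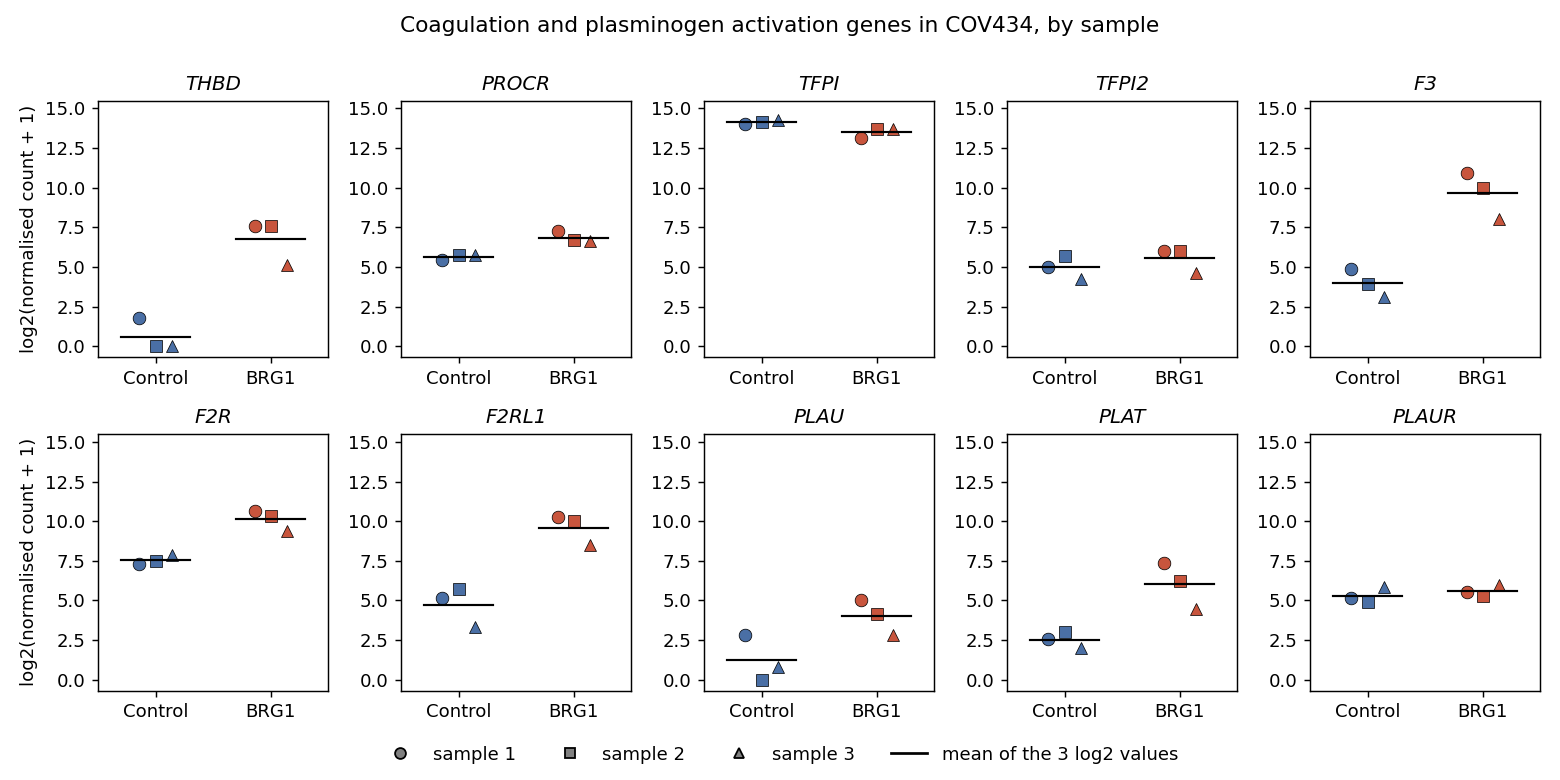
Normalized count of each of the 10 genes in every sample, as log2(normalized count + 1), with Control in blue, BRG1 in red, the sample number by symbol and a bar at the mean of the 3 log2 values. F3, F2R, F2RL1, THBD, PLAT and PROCR separate upward with BRG1, TFPI separates downward from the highest level of all, and PLAU, TFPI2 and PLAUR overlap.

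F3 encodes tissue factor, the cell-surface cofactor that starts clotting. The gene is on chromosome 1 from 94529173 to 94541759 on the minus strand of GRCh38 (GENCODE release 44), and no exon of another gene covers its 6 exons. It stood at 28.0, 14.1 and 7.57 normalized counts in Control samples 1 to 3 and 1943, 1019 and 258 in BRG1 samples 1 to 3. The lowest BRG1 sample was still 9.22 times the highest Control sample. The mean went from 16.6 ± 10.4 to 1074 ± 844 (SD, n = 3). The log2 fold change was 6.03 (SE 0.91, DESeq2 adjusted p 1.1e-09), and it was 5.30 without BRG1 sample 1 and 6.64 without Control sample 1. In pairs of the same replicate number, BRG1 was 69.4, 72.4 and 34.1 times Control.

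The study connects BRG1 to AP-1, the dimer of FOS and JUN proteins. The 250 bases before the starts that RefSeq gives were therefore searched on both strands for TGANTCA. The related CRE motif TGACGTCA and the TATA box TATAAA were searched as well. TGANTCA allows any middle base (N) and is looser than the AP-1 consensus, which has C or G there. The AP-1 evidence of the study comes from BIN67 and SCCOHT-1 cells, and for COV434 it describes RNA-seq. In BIN67 it saw open chromatin gained mainly in introns and between genes, with promoter peaks mostly static. It also reports AP-1 motifs enriched in promoters of the epithelial genes that rose most in BIN67. BRG1 and c-Jun were recruited to AP-1 motifs in promoters as well as distal sites. A dominant-negative AP-1 protein lowered most of the epithelial genes in BIN67 with BRG1. Distal sites were not searched here. RefSeq promoter windows (GRCh38.p14) were found for 7 of the 10 genes, with 2 windows for PLAU. THBD, F2R and PLAT were not searched. RefSeq starts differ from the GENCODE gene limits printed here, so the windows of PLAUR, TFPI and PLAU lie wholly inside those limits and that of F2RL1 for 97 bases, while those of F3, PROCR and TFPI2 lie outside. TGANTCA was in 6.57% of all 35116 windows of this length, TGACGTCA in 1.65% and TATAAA in 10.7%. The F3 window held TGANTCA at 2 places, starting at -223 and -210, and a TATA box at -28, where -1 is the base before the start that RefSeq gives. PLAUR held TGANTCA once, at -186, and TFPI2 once, at -87. The F3 match at -210 and the PLAUR match read TGAGTCA. The F3 match at -223 and the TFPI2 match read TGAATCA, outside the consensus. The windows of F2RL1, PROCR, TFPI and PLAU held no TGANTCA, and PROCR had a TATA box at -82. No window held the CRE motif. TGANTCA therefore occurred in the window of 1 gene called higher and of 2 genes that were not called. The consensus form was in F3 and PLAUR only. A match of letters is not a binding site. The 4 windows below are shown because they set the gene with 2 TGANTCA matches beside the uncalled genes with 1 each and a called gene with none. Capitals mark TGANTCA and TATAAA on either strand, and each runs 5′ to 3′ on the strand of its gene.
F3, chr1:94541760-94542009, minus strand: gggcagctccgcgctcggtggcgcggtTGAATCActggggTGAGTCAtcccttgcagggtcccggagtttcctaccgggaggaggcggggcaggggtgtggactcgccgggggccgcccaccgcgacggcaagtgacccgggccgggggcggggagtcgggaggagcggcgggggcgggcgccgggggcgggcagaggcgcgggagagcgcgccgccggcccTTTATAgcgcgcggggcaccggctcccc
PLAUR, chr19:43670170-43670419, minus strand: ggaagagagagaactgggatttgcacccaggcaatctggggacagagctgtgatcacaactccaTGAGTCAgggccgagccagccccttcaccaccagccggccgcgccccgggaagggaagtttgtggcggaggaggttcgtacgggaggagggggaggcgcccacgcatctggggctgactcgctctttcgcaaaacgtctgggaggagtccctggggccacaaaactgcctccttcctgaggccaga
TFPI2, chr7:93890754-93891003, minus strand: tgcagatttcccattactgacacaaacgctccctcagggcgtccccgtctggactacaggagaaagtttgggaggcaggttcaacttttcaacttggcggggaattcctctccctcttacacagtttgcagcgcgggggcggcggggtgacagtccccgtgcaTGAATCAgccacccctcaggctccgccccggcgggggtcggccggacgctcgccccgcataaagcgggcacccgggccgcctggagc
F2RL1, chr5:76818780-76819029, plus strand: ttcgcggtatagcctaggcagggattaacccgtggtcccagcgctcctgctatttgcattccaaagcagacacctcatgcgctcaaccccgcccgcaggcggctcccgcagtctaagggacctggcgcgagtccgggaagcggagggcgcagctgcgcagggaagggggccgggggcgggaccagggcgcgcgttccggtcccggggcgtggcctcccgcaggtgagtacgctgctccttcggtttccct

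TFPI encodes tissue factor pathway inhibitor, which shuts off the complex of tissue factor and factor VII. The gene is on chromosome 2 from 187464230 to 187565760 on the minus strand. Normalized counts of TFPI were 16810, 17960 and 19540 in Control and 8815, 13420 and 13600 in BRG1 samples. Within replicate numbers 1 to 3, BRG1 was 0.524, 0.747 and 0.696 times Control. The groups did not overlap, and BRG1 sample 1, which had the most F3, had the least TFPI. BRG1 samples 2 and 3 were nearly level for TFPI but had 1019 and 258 normalized counts of F3. The Control mean was 18106 ± 1369 and the BRG1 mean 11948 ± 2715 (SD, n = 3), with a log2 fold change of -0.60 (SE 0.21, DESeq2 adjusted p 0.0327). TFPI no longer passed with edgeR or limma-voom, or without any 1 of the Control samples (DESeq2 adjusted p 0.0898, 0.140 and 0.179), and it passed when the replicate number was a block (DESeq2 adjusted p 7.4e-06, edgeR adjusted p 0.00961), a fit that called 6.61% of all genes lower.

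Levels can be set side by side between genes only per length, here as normalized counts per kilobase of the canonical transcript. On that scale TFPI was the highest of the 10 genes in both groups, at 4690 ± 355 (SD, n = 3) in Control and 3100 ± 703 (SD, n = 3) with BRG1, and took 96.7% to 97.0% of the summed level in Control but 53.5% to 86.2% with BRG1. F3 moved from rank 7 to rank 2, from 7.20 ± 4.55 to 467 ± 367 (SD, n = 3). The ratio of TFPI to F3 per kilobase was 357, 760 and 1540 in Control samples 1 to 3 and 2.70, 7.84 and 31.4 in BRG1 samples 1 to 3. The ratio was lower in every BRG1 sample than in any Control sample, while TFPI RNA stayed above F3 RNA in all 6.

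TFPI2 encodes a relative of TFPI that inhibits plasmin and other proteases in the matrix. It lies on chromosome 7 from 93885396 to 93890753, and its normalized counts were 30.5, 51.6 and 18.2 in Control and 62.4, 62.3 and 23.9 in BRG1 samples. The groups overlapped, and the log2 fold change of 0.59 had a 95% interval from -0.55 to 1.74 (DESeq2 adjusted p 0.687). An increase as large as that of PROCR is within this interval, while one as large as that of F2R is outside it.

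RNA of THBD, which encodes thrombomodulin, was close to absent from Control. The gene has a single exon on chromosome 20, from 23045633 to 23049672 on the minus strand. Its rounded counts before normalization were 2, 0 and 0 in Control, and its normalized counts were 191, 187 and 34.3 in BRG1 samples 1 to 3. Summed over libraries this was 2 counts against 511, a ratio of 235 after scaling, with an exact 95% interval of 64.8 to 1950 that covers counting error only. The adjusted p was 1.2e-08 with DESeq2 and 0.00376 with edgeR. The size of the ratio rests on those 2 counts, and BRG1 sample 1 held 5.56 times the level of BRG1 sample 3.

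PROCR encodes the endothelial protein C receptor, which holds protein C for activation by thrombomodulin. It lies on chromosome 20 from 35172072 to 35216240, and antisense exons cover 12.8% of its exonic bases, whose reads cannot be told apart in libraries without strand. Control samples held 41.4, 52.8 and 53.0 normalized counts and BRG1 samples 151, 103 and 97.0, with no overlap. This was the smallest of the 6 increases, at 1.26 on the log2 scale (SE 0.34, DESeq2 adjusted p 0.00232). It did not pass without BRG1 sample 1, where the log2 fold change was 1.03 and the DESeq2 adjusted p 0.0817.

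Both protease-activated receptors were present in Control, and with BRG1 they stood at rank 3 and 4 per kilobase, at 317 ± 128 for F2R and 305 ± 157 for F2RL1 (SD, n = 3). Neither differed from the other, or from F3 at rank 2, beyond the spread between samples. F2R encodes PAR1, the main thrombin receptor, and lies on chromosome 5 from 76716126 to 76735770. In Control it had 155, 181 and 233 normalized counts and with BRG1 1597, 1282 and 661, with no overlap. The log2 fold change was 2.64 (SE 0.34, DESeq2 adjusted p 3.6e-13).

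F2RL1 encodes PAR2, which trypsin-like proteases and factor VII with tissue factor cut, and lies further along the same chromosome, from 76818933 to 76835315. Its normalized counts were 34.1, 51.6 and 9.09 in Control and 1214, 1040 and 364 in BRG1 samples. Control sample 3 was the lowest of its group and BRG1 sample 3 of its own, and within replicate numbers the ratio was 35.6, 20.2 and 40.1. The log2 fold change was 4.81 (SE 0.57, DESeq2 adjusted p 2.4e-15). Antisense exons cover 10.4% of its exonic bases. Of the other receptors of the family, F2RL2 (PAR3) had 25.0 to 29.3 normalized counts in Control and 28.3 to 48.2 with BRG1 and was not called (DESeq2 adjusted p 0.652), and F2RL3 (PAR4) held 3 counts or fewer in every sample.

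Of the plasminogen activators PLAT was called and PLAU was not. PLAT, for tissue-type activator, lies on chromosome 8 from 42174718 to 42207709 and had 4.87, 7.04 and 3.03 normalized counts in Control and 160, 73.9 and 20.9 in BRG1 samples. The groups did not overlap, and the log2 fold change was 4.13 (SE 0.81, DESeq2 adjusted p 5.9e-06), from a Control level of a few reads. Without BRG1 sample 1 it was 3.30 (DESeq2 adjusted p 0.00515).

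PLAU, for urokinase, lies on chromosome 10 from 73909177 to 73917496. Its normalized counts were 6.09, 0 and 0.757 in Control and 31.9, 16.6 and 5.97 in BRG1 samples, so that BRG1 sample 3 was no higher than Control sample 1. The log2 fold change was 3.07 with a 95% interval from 0.62 to 5.51 and a DESeq2 adjusted p of 0.0934. Without Control sample 1 the log2 fold change was 5.32 and the gene was called (DESeq2 adjusted p 0.0255), and without BRG1 sample 1 it was 2.36 (DESeq2 adjusted p 0.655). Exons of C10orf55 on the opposite strand cover 31.0% of the exonic bases of PLAU, and the low-count filter of edgeR removed it.

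PLAUR encodes the urokinase receptor, which holds urokinase at the cell surface, and lies on chromosome 19 from 43646095 to 43670547. Normalized counts of PLAUR were 34.1, 28.1 and 55.3 in Control and 45.0, 37.4 and 62.7 in BRG1 samples. Sample 3 was the highest in both groups, and the groups overlapped. The log2 fold change was 0.28 with a 95% interval from -0.62 to 1.17 (DESeq2 adjusted p 0.851). This interval lies below the fitted changes of the 6 genes called higher. It overlaps the 95% interval of PROCR, from 0.595 to 1.92, so PLAUR is not set apart from PROCR.

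**Figure D2:**
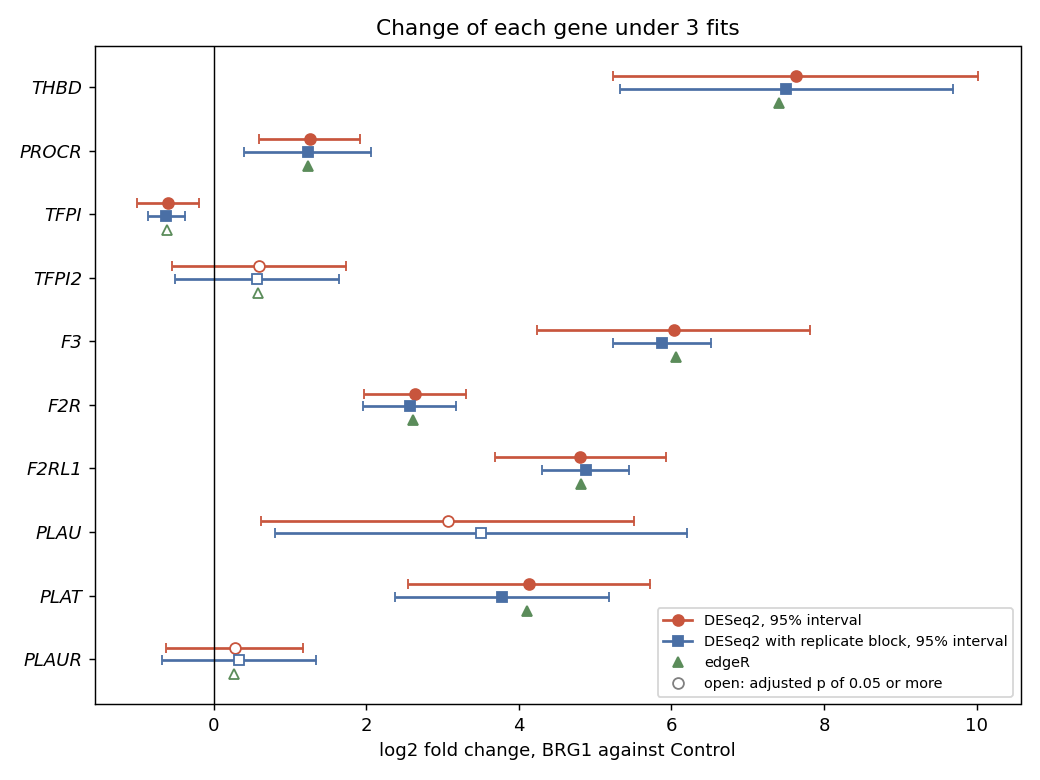
Log2 fold change of each gene, BRG1 against Control, from DESeq2 (circles), DESeq2 with the replicate number as a block (squares), both with 95% intervals, and edgeR (triangles). Open symbols did not pass an adjusted p of 0.05. The 3 fits gave nearly the same log2 fold changes, TFPI was open with edgeR alone, and PLAU was not tested by edgeR.

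The BRG1 samples did not carry these RNAs equally. BRG1 sample 3 was the lowest BRG1 sample for all 6 genes called higher, as it was for 80.2% of all genes called higher. Its share of the BRG1 mean was 24.1% for F3, 24.6% for PLAT, 25.0% for THBD, 41.7% for F2RL1, 56.0% for F2R and 82.9% for PROCR. SMARCA4 in the same sample stood at 88.5% of its mean, nearly the 89.1% of BRG1 sample 2. Leaving BRG1 sample 3 out kept the same 7 genes called. In bulk RNA a smaller share of responding cells and less RNA per cell cannot be told apart.

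**Figure D3:**
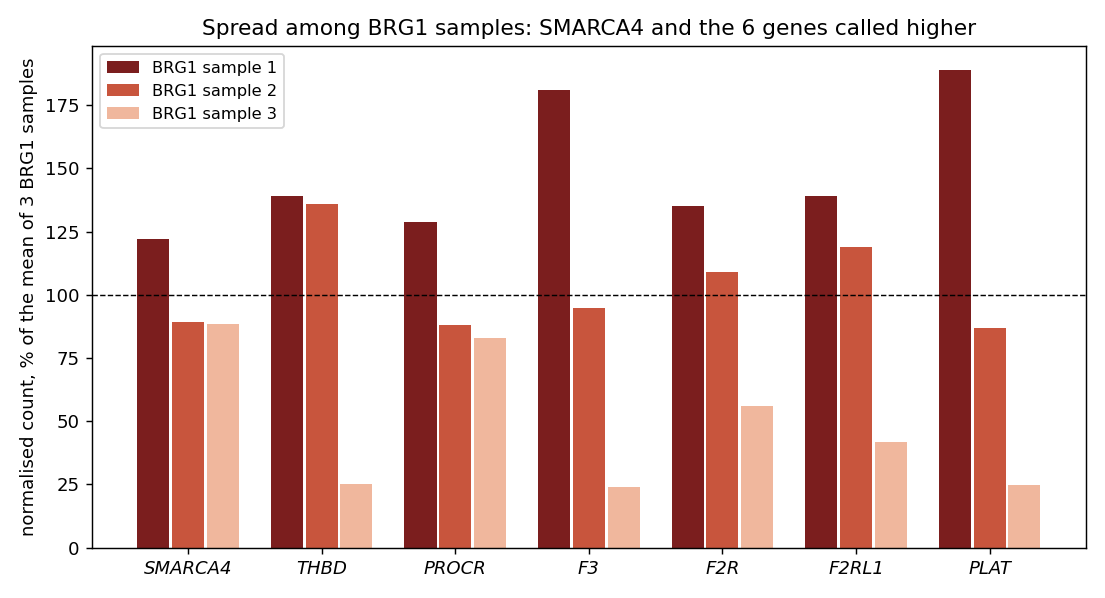
Normalized count in each BRG1 sample as a percentage of the mean of the 3 BRG1 samples, for SMARCA4 and the 6 genes called higher. BRG1 samples 2 and 3 are level for SMARCA4, whereas BRG1 sample 3 is at 25.0% or less of the mean for F3, PLAT and THBD.

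Other genes of clotting and fibrinolysis were then counted. Of 49 listed genes 32 had an adjusted p, and 8 of them were called higher and 0 lower by DESeq2, 25.0% beside 11% of all genes. edgeR called the same number, 8 higher and 0 lower, of 26 tested, beside 9.57% and 1.02% of all genes. At an unadjusted p under 0.05, 1 gene was lower by either tool, VKORC1 of the vitamin K cycle (DESeq2 adjusted p 0.103). With the replicate block DESeq2 called VKORC1 lower (log2 fold change -0.40, DESeq2 adjusted p 0.00103), in a fit that called 6.61% of all genes lower. That fit called 12 listed genes higher, with EGR1, F13A1, KLF4 and SERPINB2 added, and 13.4% of all genes higher. How many listed genes it tested was not counted, so the 12 are not given as a share. edgeR with the same block called 9 of 26 tested higher, with KLF4 but not EGR1, F13A1 or SERPINB2, beside 1950 of all 14246 genes tested. It also called VKORC1 lower (edgeR adjusted p 0.0123), beside 809 of all genes. The median log2 fold change of the 32 genes was 0.48. A further 13 listed genes, prothrombin (F2) and plasminogen (PLG) among them, held 3 counts or fewer in every sample.

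Among the inhibitors and partners of plasminogen activation, 3 of 8 tested genes were called higher, 37.5% beside 11% of all genes. SERPINE2, which inhibits thrombin and plasminogen activators at the cell surface, had a log2 fold change of 2.20, ANXA2, which docks plasminogen, of 2.39, and VTN (vitronectin), which binds the urokinase receptor, of 4.32. S100A10, of the same list, was near the floor, at 0 to 2.44 normalized counts in Control and 2.90 to 13.4 with BRG1. S100A10 was not called (DESeq2 adjusted p 0.512). SERPINB2, an inhibitor of both activators, had 189, 285 and 485 normalized counts in Control and 540, 652 and 491 in BRG1 samples, without overlap. It was not called (log2 fold change 0.81, DESeq2 adjusted p 0.120), but was with the replicate block in DESeq2 (log2 fold change 0.91, DESeq2 adjusted p 0.0156; edgeR adjusted p 0.0618) and without Control sample 3.

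Of the clotting factors, VWF alone passed among 11 tested, 9.09% beside 11% of all genes called higher. It encodes von Willebrand factor, the platelet adhesion protein of vessel walls, and had 25.6, 27.0 and 81.8 normalized counts in Control and 3657, 3224 and 3613 in BRG1 samples, with 6.26 as the log2 fold change (DESeq2 adjusted p 5.7e-55). Control sample 3 was the highest of its group, and without it the log2 fold change was 7.05. The highest BRG1 sample was 1.13 times the lowest for VWF and 7.53 times for F3. F5 and F8, cofactors of thrombin generation, were expressed at 473 to 1183 and 351 to 403 normalized counts in Control and were not called. Of 4 genes tested on the list of circulating anticoagulants 1, SERPINA5, was called, 25.0% beside the same 11%. Its place on that list does not say which way it acts on clotting, as activated protein C is itself an anticoagulant. SERPINA5, an inhibitor of activated protein C that also inhibits urokinase, had 4.87, 9.38 and 6.81 normalized counts in Control and 2454, 1990 and 1597 in BRG1 samples (log2 fold change 8.17, DESeq2 adjusted p 5.7e-93).

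Proteases known to cut PAR2 or urokinase, with their inhibitors, had 3 of 5 tested genes called higher, 60.0% beside 11% of all genes. KLK5, a kallikrein of the epidermis that cuts PAR2, rose by 7.73 on the log2 scale (DESeq2 adjusted p 2.1e-47), and SPINT2, an inhibitor of membrane serine proteases, by 0.62 (DESeq2 adjusted p 0.00111). The other, KLK14, lay under the mean of 50 normalized counts set for naming a gene (log2 fold change 3.29, and 4.03 without Control sample 3). KLF2 and KLF4, transcription factors known to raise THBD in vessel walls, were present in every sample. KLF2 had 4001, 1388 and 1261 normalized counts in Control and 3945, 2008 and 1524 in BRG1 samples and was not called (log2 fold change 0.17, DESeq2 adjusted p 0.926; 0.91 and adjusted p 0.178 without Control sample 1). KLF4 differed by 0.74 on the log2 scale (DESeq2 adjusted p 0.0788) and was called with the replicate block (log2 fold change 0.68, DESeq2 adjusted p 0.00425, edgeR adjusted p 0.0317) and without BRG1 sample 3.

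**Figure D4:**
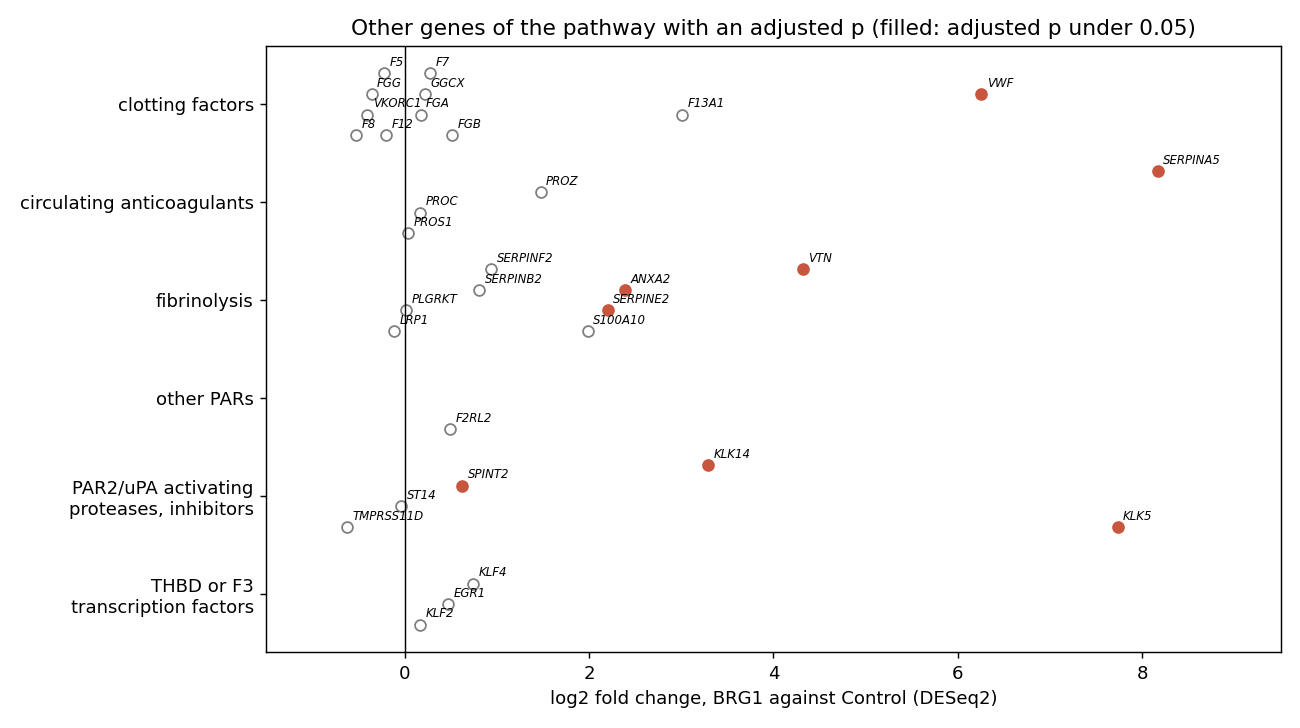
DESeq2 log2 fold change of the 32 other pathway genes with an adjusted p, by list, with genes called at an adjusted p under 0.05 filled. The 8 filled points all lie above 0, with SERPINA5, KLK5 and VWF beyond 6.

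THBD, PROCR and VWF are best known from endothelium, so markers of other cells that make these proteins were read in the same libraries. Of 12 endothelial markers, all tested, 5 (CDH5, TEK, TIE1, ROBO4 and VWF) were called higher and 0 lower, 41.7% beside 11% of all genes called higher. Their summed level was 2714 to 3696 normalized counts in Control and 7464 to 8018 with BRG1, and without VWF, which carried most of that difference, 2689 to 3614 and 3922 to 4405. KDR, EGFL7, CLDN5, ESAM, ERG and EMCN were not called. PECAM1 was at 0 to 23.5 normalized counts in Control and 7.25 to 37.3 with BRG1 and was not called, and no marker of this list was at 3 counts or fewer throughout. Of 10 monocyte and macrophage markers 5 were tested, and LYZ and MARCO were called higher (40.0% of those tested). The summed level of the 10 was 355 to 682 and 480 to 791, and PTPRC carried most of it. PTPRC had 336, 509 and 669 normalized counts in Control and 360, 477 and 722 in BRG1 samples. PTPRC was not called (log2 fold change 0.04, DESeq2 adjusted p 0.977), nor were CD14 and CSF1R. CD163, FCGR3A, TYROBP and SPI1 were at 3 counts or fewer throughout. Of 9 hepatocyte markers 5 were tested, and APOA1 and SERPINA1 were called higher (40.0%, SERPINA1 not by edgeR). ALB (log2 fold change -0.12, DESeq2 adjusted p 0.955), APOB (DESeq2 adjusted p 0.113) and TF (DESeq2 adjusted p 0.658) were tested and not called. The sum was 59.8 to 94.6 and 342 to 696, and TTR, CYP3A4 and APOH were at that floor. COV434 was long used as a granulosa cell line, and of 10 granulosa markers FOXL2, FSHR and AMHR2 were at the floor in all samples. CYP19A1, INHBA, INHBB and FST were called higher, 66.7% of the 6 tested, with sums of 426 to 553 and 1209 to 2457. The other tested markers, AMH (log2 fold change 0.46, DESeq2 adjusted p 0.373) and INHA (-0.14, DESeq2 adjusted p 0.923), were not called. NR5A1 had no adjusted p. All samples are of the COV434 line, so these lists describe only the level of marker RNA in that line. Why the markers differ was not tested.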

How the data were processed

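RNA of COV434 cells was sequenced as unstranded poly(A) libraries. The authors aligned reads with STAR (2.5.3a), quantified transcripts with Salmon (0.8.2) against GENCODE on hg38 and summed them with tximport. The table deposited holds an estimated count for each gene symbol and sample (lengthScaledTPM, not divided by library size), in which transcript length differences between samples are scaled out and ambiguous reads are shared by Salmon's model. Totals were 29699741 to 63613710 per sample, which sets counting error.

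Counts were rounded. The main test was DESeq2 (1.42.0, R 4.3.3), BRG1 against Control, without covariates, as the study names DESeq2. Benjamini-Hochberg adjustment ran over all 16002 genes with an adjusted p, at 0.05. edgeR's quasi-likelihood test (4.0.16) and limma-voom (3.58.1), with TMM factors, were alternatives, as were TMM factors or a filter of 10 counts in 3 samples within DESeq2, no independent filtering, an adjusted p under 0.01, the replicate block and leaving out each sample. All fits except those leaving out a sample were tested on simulated data, where the share of false calls exceeded the threshold in DESeq2 and in edgeR with the block, and was lower in edgeR and limma-voom than in DESeq2. The simulated samples had no effect of replicate number and far fewer changed genes than were called here. The simulation therefore does not give the share of false calls in these data, with or without the block. Same-numbered samples deviated together (r = 0.495, 0.433 and 0.576 over 12433 genes with a mean of at least 50), so the numbers were taken to pair the samples. No source used here says that the replicates of these cells were separate cultures, so p-values measure only the spread between these samples. No pair of libraries of the same group agreed within sampling noise.

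The genes and lists were chosen with earlier results of these data known. The text names the 10 genes, SMARCA4, the other pathway genes called with a mean of at least 50 (7 genes), SERPINB2, KLF2 and KLF4; other names were chosen after their values were seen. A result left out of the pathway list and its counts is not reported here. Intervals of 95% for log2 fold changes are 1.96 standard errors. Gene positions are from GENCODE release 44 and promoter sequences from RefSeq (GRCh38.p14), the same assembly as hg38.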

Additional observations from a re-analysis of the deposited data

How the results depend on the processing

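THBD, F3, F2R, F2RL1 and PLAT were called higher in all 14 fits. Over 13 alternatives the 10 genes gave 126 values with an adjusted p, of which 119 kept direction and call, 6 lost the call, 1 gained it and 0 reversed. The losses were PROCR without BRG1 replicate 1 and TFPI under edgeR (log2 fold change -0.61), limma-voom (-0.64, adjusted p 0.0734) and without each Control replicate, and the gain was PLAU without Control replicate 1. With the replicate block the same 7 genes were called.

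The number of the 10 genes called lower (1) was 0 in edgeR, in limma-voom and at the 0.01 threshold, and ran from 0 to 1 when a replicate was left out. Pathway genes called lower (0) were 1 with the replicate block, by DESeq2 or edgeR, and ran from 0 to 3 (F8, FGG and VKORC1, without BRG1 replicate 3). All genes called lower (294) numbered 146 (edgeR), 157 (limma-voom), 130 (threshold of 0.01), 1035 with the DESeq2 replicate block and 809 with the edgeR replicate block, and with a sample left out ran from 116 (BRG1 replicate 2) to 596 (BRG1 replicate 3). The cause was not tested. The group of 3 samples limits every value, and the widest intervals of the 10 genes are those of THBD and PLAU, with a few reads in Control.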
